A study of Mus musculus with 6 samples.

Results

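Pericytes wrap capillaries, and smooth muscle cells wrap arteries and arterioles; together they are the mural cells of the blood vessel wall. The transcripts described here come from 10 genes that mark these cells: Abcc9, Kcnj8, Rgs5, Notch3, Cspg4, Mcam, Acta2, Tagln, Myh11 and Des. They were chosen by gene symbol out of 35865 genes in the deposited files. All 10 were found, and all 10 passed the low-count filter that left 16386 genes for testing. The RNA came from cardiac macrophages sorted out of digested mouse hearts, and whether reads of these genes came from mural cells in the sorted material or from other cells was not tested. In bulk RNA, fewer cells of a type and less RNA per cell cannot be told apart.

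The macrophages descended from donor haematopoietic progenitors of C57BL/6J mice. In one group the cells lacked Tet2 (Tet2 KO), and in the other they had the normal gene (Tet2 WT). Tet2 encodes an enzyme that oxidises methylated cytosine in DNA. There were 3 RNA-seq libraries per genotype, named here by genotype and replicate number. Per the title of the series, the recipients were not conditioned, so the host kept its own blood-forming cells. The part of Tet2 that was deleted, the sort gate, the age of the mice and whether each library was a separate animal were not given in the sources used here, so the p-values refer to differences among libraries that may be only technical repeats.

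The libraries held 37349505 to 55771087 estimated counts. Levels are given as counts scaled to library size (CPM) after TMM normalisation, which sets the bulk of genes level between libraries. Where genes are compared with each other, levels are in TPM, a unit that also corrects for transcript length. Tet2 itself stood at 81.2, 82.6 and 78.2 CPM in Tet2 KO and 57.5, 76.1 and 60.8 CPM in Tet2 WT (edgeR adjusted p = 0.159), which does not test the knockout without the deleted exons being known. The groups are therefore those of the labels. Macrophage markers were abundant in each library, with 14 genes summing to 34286 to 42333 CPM in Tet2 KO and 19994 to 27424 CPM in Tet2 WT. Of these 14, 12 were called higher in Tet2 KO and 0 lower (edgeR adjusted p under 0.05), beside 6.11% higher and 10.1% lower among all tested genes. The 12 fibroblast markers summed to 2072 to 4156 CPM in Tet2 KO and 14851 to 27444 CPM in Tet2 WT, so RNA of these genes differed between the genotypes. Which cells it came from was not tested. The 10 mural genes together came to 36.8 to 67.7 CPM in Tet2 KO and 62.8 to 102.5 CPM in Tet2 WT.

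As background, mural cells hold vascular tone. Kcnj8 encodes the pore (Kir6.1) and Abcc9 the regulatory subunit (SUR2) of a potassium channel that opens when ATP is low and relaxes the vessel; Rgs5 shortens signals of G protein-coupled receptors that contract it. Notch3, a receptor switched on by ligands of neighbouring endothelial cells, keeps arterial smooth muscle differentiated. Acta2, Tagln, Myh11 and Des encode the actin, its binding protein, the myosin and the intermediate filament of the contractile cell. Several of these genes are also known from other cells: Acta2 and Tagln from myofibroblasts, Des and Abcc9 from cardiomyocytes, Mcam from endothelial cells.

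The coding ends of the main Abcc9 transcripts are shown first, because they define the protein forms to which the counts of this gene were assigned. Abcc9 ends in alternative last coding exons. One gives SUR2A, the form of cardiac and skeletal muscle, and the other SUR2B, the form of vascular smooth muscle. Abcc9-203 was identified here as the SUR2B form because its last 42 residues were 73.8% identical to the end of the protein of Abcc8, the related SUR1 subunit, against 33.3% for Abcc9-201; SUR2B is known as the form whose end resembles SUR1. The last coding exons run up to and include the stop codon and have 138 bases each, from GRCm38 chr6:142594005-142594142 for Abcc9-201 and chr6:142590366-142590503 for Abcc9-203, both on the minus strand. They were read from the GENCODE M21 transcripts. Capitals mark the 68 positions at which they differ when laid base against base; 70 are the same.
Abcc9-201 (SUR2A end): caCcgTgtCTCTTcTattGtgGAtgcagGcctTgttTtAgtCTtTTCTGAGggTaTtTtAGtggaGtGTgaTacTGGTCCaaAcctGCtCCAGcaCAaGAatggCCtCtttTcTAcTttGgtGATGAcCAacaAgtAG
Abcc9-203 (SUR2B end): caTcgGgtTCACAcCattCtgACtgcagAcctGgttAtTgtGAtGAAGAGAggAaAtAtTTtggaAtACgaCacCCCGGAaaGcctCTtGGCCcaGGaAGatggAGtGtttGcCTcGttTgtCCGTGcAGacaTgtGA

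Of the 10 mural genes, 1 fell in Tet2 KO and 0 rose at an edgeR quasi-likelihood adjusted p under 0.05. Across all 16386 tested genes, 10.1% were called lower and 6.11% higher, so the share of mural genes called lower was near that of all genes. At an unadjusted p under 0.05 the counts of mural genes were again 1 lower and 0 higher, and DESeq2 and limma voom also called 1 lower and 0 higher. The gene that fell was Abcc9. With libraries scaled to the macrophage markers instead, the median of all genes shifted by -0.71 on the log2 scale, and 6 of the 10 genes were called lower beside 43.4% of all genes. The log2 fold changes ran from -2.26 to 0.06 with a median of -0.70, beside 0.0025 over all tested genes and -0.13 over the 5331 tested genes whose mean level lay within the range of the 10. Of those 5331 genes, 881 were called lower and 114 higher. The CPM of the 3 Tet2 KO libraries lay below all 3 Tet2 WT libraries for 1 of the 10 genes, for 18.1% of all tested genes and for 1378 of the 5331. The TPM did so for 2, Abcc9 and Des, and for 24.2% of all tested genes.

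**Figure D1:**
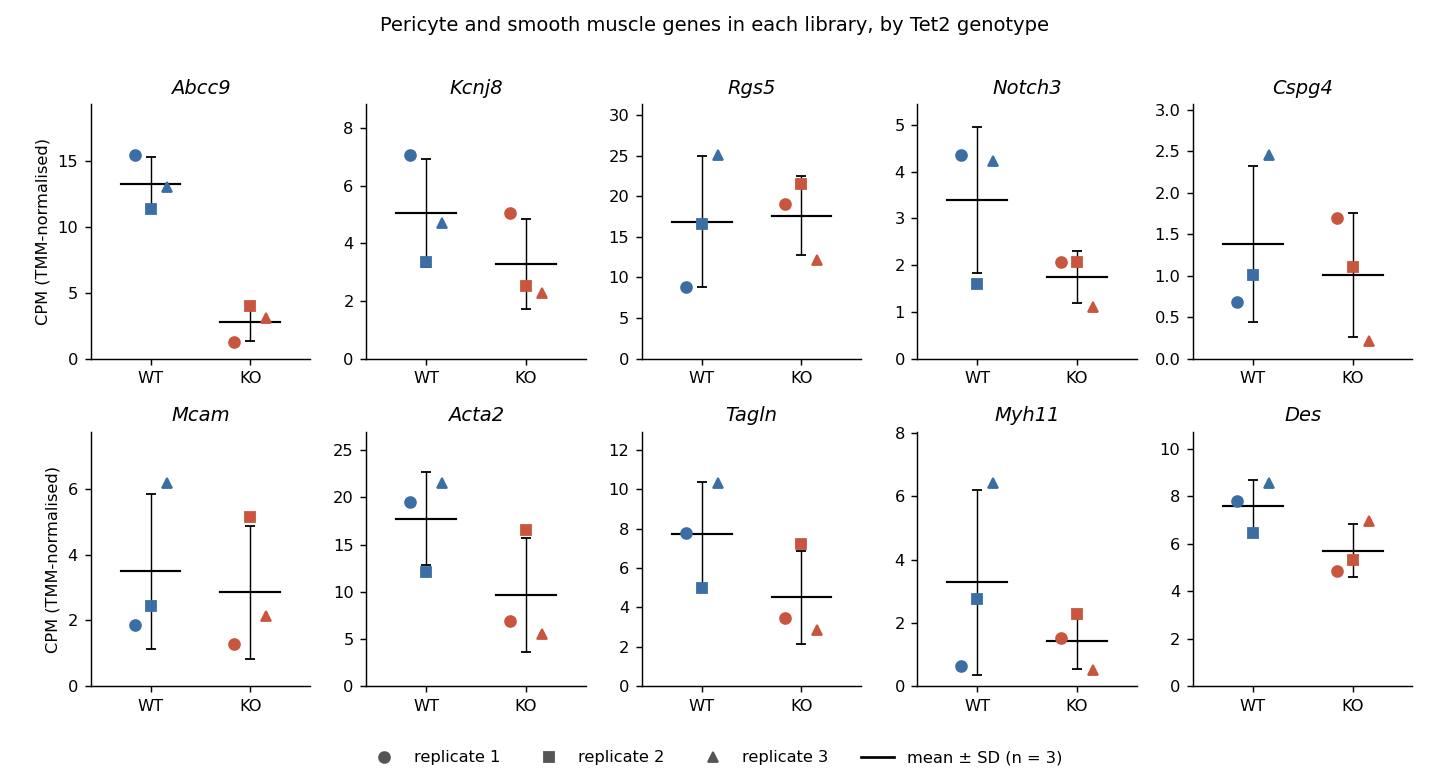
Level of each of the 10 pericyte and smooth muscle genes in CPM after TMM normalisation (vertical axes, linear, each from 0) in the 3 Tet2 WT (blue) and 3 Tet2 KO (red) libraries; symbols mark the replicate, bars the mean ± SD. The groups separate for Abcc9, at 11.4 CPM or more in Tet2 WT and 3.97 CPM or less in Tet2 KO, and overlap for the other 9 genes.

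Abcc9 (ENSMUSG00000030249.15; chromosome 6, 142587862 to 142702315, minus strand) was at 1.24, 3.97 and 3.05 CPM in Tet2 KO replicates 1, 2 and 3 and at 15.5, 11.4 and 13.0 CPM in Tet2 WT replicates 1, 2 and 3. The highest Tet2 KO library stayed well below the lowest Tet2 WT library. The log2 fold change was -2.26 ± 0.38 (SE; 95% interval -3.12 to -1.40, edgeR adjusted p = 0.00383), a 4.79-fold fall. The raw values behind it were 43, 204 and 159 estimated counts in Tet2 KO and 810, 634 and 706 in Tet2 WT. All 12 fibroblast markers fell as well (median -3.01 on the log2 scale), and cardiomyocyte markers summed to 127 to 208 CPM in Tet2 KO and 144 to 177 CPM in Tet2 WT; the part of either cell type in the Abcc9 result was not tested.

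The counts of Abcc9 lay mainly on the SUR2B transcript whose last coding exon is printed above. Abcc9-203 received 204 and 157 estimated counts in Tet2 KO replicates 2 and 3 and 679, 577 and 601 in Tet2 WT. In Tet2 KO replicate 1 it received 0.0012, and all but a trace of the 43 counts of the gene went to Abcc9-201. Abcc9-201 received 116, 48.0 and 105 counts in Tet2 WT and 0 in Tet2 KO replicates 2 and 3. The exon of 176 bases with the SUR2A end (142593967 to 142594142) is in Abcc9-201 and not in Abcc9-203. The SUR2B sequence is in both transcripts, since in Abcc9-201 it follows the stop codon as untranslated sequence, so reads within it do not tell the transcripts apart. They differ besides in the length of the first exon and in an exon of 105 bases (142658498 to 142658602) that Abcc9-201 lacks. The counts of either transcript can therefore not be tied to the printed exons alone. The other SUR2A transcripts, Abcc9-202, Abcc9-204 and Abcc9-206, received almost none.

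**Figure D2:**
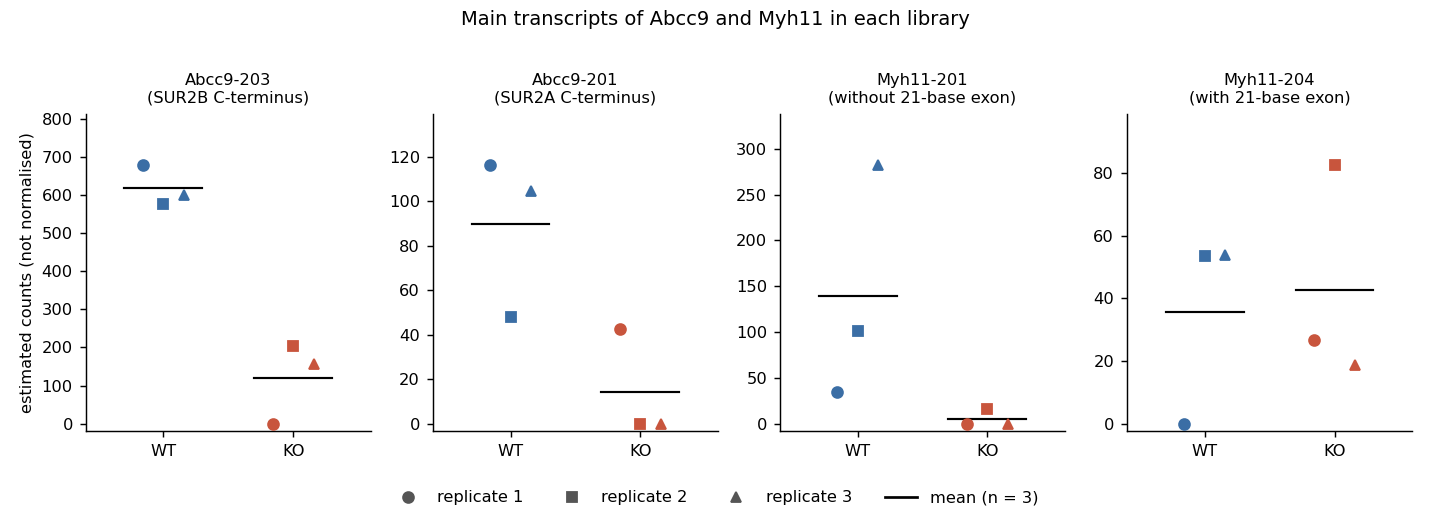
Estimated counts (vertical axes, linear, not normalised for depth) of the main transcripts of Abcc9 and Myh11 in each library, by genotype; symbols mark the replicate and the black line the mean. Abcc9-203 stands at 577 to 679 counts in Tet2 WT and at most 204 in Tet2 KO, and Myh11-201 at 34.0 to 282 counts in Tet2 WT and at most 15.8 in Tet2 KO.

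Kcnj8, which encodes the pore that SUR2 regulates, did not pass the test. It lies next to Abcc9 (ENSMUSG00000030247.9; chromosome 6, 142564837 to 142571614, minus strand). It stood at 5.07, 2.51 and 2.26 CPM in Tet2 KO and 7.06, 3.36 and 4.72 CPM in Tet2 WT. Tet2 KO replicate 1, the library lowest for Abcc9, was the highest Tet2 KO library for Kcnj8, and the groups overlapped. The log2 fold change was -0.63 ± 0.41 (SE; 95% interval -1.55 to 0.29, edgeR adjusted p = 0.368). The channel partners were also compared within libraries, a comparison chosen after their values were seen and therefore given without a test. The log2 ratio of Abcc9 to Kcnj8, on the log2(CPM + 0.5) scale, was -1.68, 0.57 and 0.36 in Tet2 KO and 1.08, 1.62 and 1.37 in Tet2 WT. Each Tet2 KO library lay below each Tet2 WT library, with a mean difference of -1.61 ± 0.73 (SE). The paralogs of the channel in pancreatic beta cells and cardiac myocytes, Abcc8 and Kcnj11, had too few counts to be tested, with at most 6 and 19 estimated counts in a library.

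Rgs5, among the most widely used pericyte markers, had the value nearest to no change (ENSMUSG00000026678.10; chromosome 1, 169655501 to 169695813, plus strand). It stood at 19.1, 21.6 and 12.2 CPM in Tet2 KO and 8.87, 16.6 and 25.1 CPM in Tet2 WT. Both the lowest and the highest library were Tet2 WT, replicates 1 and 3, and the Tet2 KO values lay between them. The log2 fold change was 0.06 ± 0.36 (SE; 95% interval -0.75 to 0.88, edgeR adjusted p = 0.937), so the fold of Tet2 KO over Tet2 WT lay between 0.593 and 1.84. The sign turned negative in some other fits, among them libraries scaled to the macrophage markers (-0.62) and the fit without Tet2 WT replicate 1 (-0.23). Of its paralogs in the R4 family of RGS genes, Rgs2 and Rgs18, both known from leukocytes, rose by 0.51 ± 0.13 and 0.70 ± 0.20 on the log2 scale (edgeR adjusted p = 0.021 and 0.0365). Macrophage markers rose in the same libraries (median 0.72), and with libraries scaled to them Rgs2 had -0.19 and Rgs18 -0.0015, neither of them called. Rgs4, another pericyte gene, had -1.30 ± 0.44 (edgeR adjusted p = 0.0746), and Rgs1 had 0.12 ± 0.18.

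The surface proteins of mural cells did not pass the test either. Notch3 (ENSMUSG00000038146.8; chromosome 17, 32120820 to 32166852, minus strand) stood at 2.07, 2.06 and 1.09 CPM in Tet2 KO and 4.35, 1.5997 and 4.24 CPM in Tet2 WT. Tet2 WT replicates 1 and 3 were above all Tet2 KO libraries, and Tet2 WT replicate 2 was below Tet2 KO replicates 1 and 2. Its log2 fold change was -0.96 ± 0.46 (SE; 95% interval -2.0045 to 0.08, edgeR adjusted p = 0.208). Cspg4 (ENSMUSG00000032911.6; chromosome 9, 56865033 to 56899870, plus strand), which encodes the NG2 proteoglycan of pericytes, stood at 1.70, 1.11 and 0.211 CPM in Tet2 KO and 0.687, 1.01 and 2.45 CPM in Tet2 WT. These values rest on 11 to 133 estimated counts, and the interval of the log2 fold change, -2.12 to 1.19, spans falls and rises of more than 2-fold. Mcam (ENSMUSG00000032135.15; chromosome 9, 44134469 to 44142727, plus strand), the adhesion molecule CD146, stood at 1.30, 5.14 and 2.13 CPM in Tet2 KO and 1.87, 2.43 and 6.19 CPM in Tet2 WT, and the groups overlapped over most of their range. The fitted difference was -0.29 ± 0.59 on the log2 scale (95% interval -1.62 to 1.05, edgeR adjusted p = 0.809). The sign turned positive for Cspg4 without Tet2 KO replicate 3 (0.02) or Tet2 WT replicate 3 (0.25), and for Mcam without Tet2 KO replicate 1 (0.06) or Tet2 WT replicate 3 (0.44). Antisense genes overlap Abcc9, Des, Mcam, Notch3 and Tagln, and since the strand setting of the counting was not given, their reads may be mixed with those of these genes.

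The contractile genes were led by Acta2, which encodes smooth muscle alpha-actin (ENSMUSG00000035783.9; chromosome 19, 34241090 to 34255590, minus strand). It stood at 6.89, 16.6 and 5.54 CPM in Tet2 KO and 19.6, 12.1 and 21.5 CPM in Tet2 WT. Tagln, which encodes the actin-binding protein SM22-alpha (ENSMUSG00000032085.5; chromosome 9, 45929619 to 45936058, minus strand), stood at 3.46, 7.22 and 2.87 CPM in Tet2 KO and 7.80, 4.997 and 10.3 CPM in Tet2 WT. The 2 genes put the 6 libraries in the same order, with Tet2 WT replicates 3 and 1 highest, then Tet2 KO replicate 2, Tet2 WT replicate 2 and Tet2 KO replicates 1 and 3. Tet2 KO replicate 2 was thus above a Tet2 WT library for both genes, and neither passed the test. The log2 fold changes were -0.87 ± 0.41 for Acta2 (95% interval -1.80 to 0.05, edgeR adjusted p = 0.198) and -0.77 ± 0.40 for Tagln (95% interval -1.67 to 0.13, edgeR adjusted p = 0.25).

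Whether Acta2 and Tagln were called depended on Tet2 KO replicate 2 and on the scaling. With all 6 libraries scaled to the macrophage markers, both were called lower, beside 43.4% of all genes. Acta2 had -1.58 and Tagln -1.47 in that fit (edgeR adjusted p = 0.0327 and 0.02975). Without Tet2 KO replicate 2, Acta2 was called lower at -1.51 (edgeR adjusted p = 0.0123) and Tagln at -1.28 (edgeR adjusted p = 0.0474), which made 3 of the 10 genes lower beside 10.3% of all genes tested in that fit. Tet2 KO replicate 2 also had the highest sums of endothelial (154 against 111 and 119 CPM) and cardiomyocyte markers (208 against 127 and 144 CPM) of the Tet2 KO libraries, and the lowest of fibroblast markers (2072 against 4156 and 3799 CPM). Their part in the levels of Acta2 and Tagln was not tested. In edgeR, 0 of the 4 other actin genes tested passed, beside 10.1% lower and 6.11% higher among all tested genes. At an unadjusted p under 0.05 the count was also 0, and DESeq2 and limma voom called 0. Actb and Actg1, the actins of all cells, had 0.01 ± 0.34 and 0.16 ± 0.14, the cardiac actin Actc1 had -0.06 ± 0.19 and the skeletal actin Acta1 -0.34 ± 0.81. With libraries scaled to the macrophage markers, Actg1 (-0.56) and Actc1 (-0.77) were called lower, beside 43.4% of all genes. Actg2, the smooth muscle gamma-actin, was not tested, with at most 7 estimated counts in a library. Of the 2165 sequences of 31 bases in the Acta2 transcripts, the word length searched here, 1.39% also occurred in another gene, among them Actg1 and actin pseudogenes. Tet2 KO replicate 2, the highest Tet2 KO library for Acta2, was also the highest for Actb (10652 CPM) and Actg1 (3199.8 CPM), and whether reads of these genes were assigned to Acta2 was not tested. The share was highest for Tagln, at 3.93%, all of it with Pcsk7, whose end overlaps that of Tagln on the other strand.

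Myh11, which encodes smooth muscle myosin heavy chain and marks mature smooth muscle, was sparse (ENSMUSG00000018830.10; chromosome 16, 14194535 to 14291372, minus strand). It had 53, 117 and 26 estimated counts in Tet2 KO and 34, 154 and 349 in Tet2 WT, or 1.53, 2.28 and 0.498 CPM and 0.649, 2.77 and 6.43 CPM. Tet2 WT replicate 1 lay below 2 of the Tet2 KO libraries. The log2 fold change of -1.20 ± 0.79 had the widest interval of the 10 genes (-2.99 to 0.60, edgeR adjusted p = 0.376). Its transcripts divided unevenly. Myh11-201, which encodes a protein of 1972 residues, received 0, 15.8 and 0 counts in Tet2 KO and 34.0, 101 and 282 in Tet2 WT, with no overlap. Myh11-204 received 26.5, 82.5 and 18.6 counts in Tet2 KO and 0, 53.3 and 54.0 in Tet2 WT, with overlap. Myh11-204 encodes 1979 residues and differs by an exon of 21 bases, known from the SM-B form of the protein, at chr16:14248580-14248600 on the minus strand. Myh11-202, which also lacks this exon, received 26.5, 18.7 and 0 counts in Tet2 KO and 0, 0 and 13.0 in Tet2 WT. The separation of the groups for Myh11-201 is therefore not one of all forms without the exon. The 21-base exon is shown because it tells Myh11-204 from Myh11-201, though they also differ in the lengths of their first and last exons.
Myh11-204 exon: caaggtccatcttttgcctac

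Des, the intermediate filament gene of all muscle, had the narrowest interval of the 10 genes (ENSMUSG00000026208.9; chromosome 1, 75360329 to 75368579, plus strand). It stood at 4.84, 5.33 and 6.97 CPM in Tet2 KO and 7.78, 6.45 and 8.57 CPM in Tet2 WT. Only Tet2 KO replicate 3 reached above a Tet2 WT library. The log2 fold change was -0.41 ± 0.25 (95% interval -0.98 to 0.16, edgeR adjusted p = 0.335). Synm and Sync, which encode partners that link Des filaments to other structures, fell, with log2 fold changes of -3.11 ± 0.29 and -3.31 ± 0.50 (edgeR adjusted p = 0.000181 and 0.00195). Vim, the filament gene of mesenchymal cells and macrophages, had -0.11 ± 0.16, and Prph had -0.98 ± 1.34. Tagln2 and Cnn2, the leukocyte paralogs of Tagln and calponin, had 0.18 ± 0.14 and 0.40 ± 0.13 (edgeR adjusted p = 0.466 and 0.0648), and Cnn3 fell by 2.24 ± 0.34 (edgeR adjusted p = 0.00278). Of the nonsarcomeric myosins, Myh10 fell by 0.82 ± 0.16 (edgeR adjusted p = 0.00667), while Myh9 had 0.19 ± 0.16 and Myh14 -0.00046 ± 0.92. The part of fibroblasts, whose 12 markers fell in the same libraries, in the falls of Synm, Sync, Cnn3 and Myh10 was not tested.

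**Figure D3:**
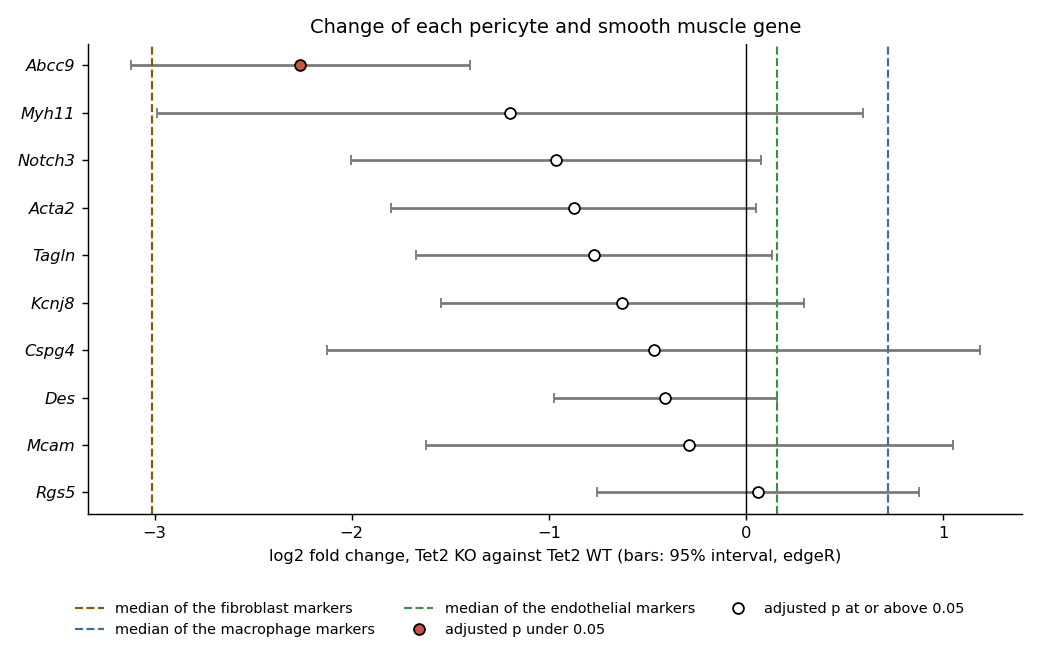
Log2 fold change of each gene, Tet2 KO against Tet2 WT (horizontal axis), with its 95% interval from edgeR; the filled point passed the test, and dashed lines give the medians of the fibroblast, endothelial and macrophage markers. The interval of 9 of the 10 genes holds 0, and the interval of 9, all but Abcc9, lies above the fibroblast median of -3.01.

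Set against the intervals, the fibroblast median of -3.01 lay below the lower bound for 9 of the 10 mural genes and within the interval of Abcc9. The interval of 8 genes reached below a 2-fold fall, and those of Rgs5 and Des did not. These intervals are from the fit with TMM scaling. With libraries scaled to the macrophage markers, Des had -1.14 (edgeR adjusted p = 0.0188) and was called lower, beside 43.4% of all genes. The mean log2(CPM + 0.5) of the 10 genes was 1.92, 2.38 and 1.58 in Tet2 KO and 2.45, 2.35 and 3.12 in Tet2 WT, overlapping between Tet2 KO replicate 2 and Tet2 WT replicate 2. For the 12 fibroblast markers the same measure was 6.08, 5.05 and 6.03 in Tet2 KO and 9.17, 8.45 and 8.83 in Tet2 WT. The mural mean minus the fibroblast mean was -4.15, -2.67 and -4.45 in Tet2 KO and -6.71, -6.11 and -5.71 in Tet2 WT. The distance was smaller in each Tet2 KO library than in each Tet2 WT library. The endothelial markers were at 2.92, 3.43 and 2.99 in Tet2 KO and 2.67, 2.77 and 3.76 in Tet2 WT, with Tet2 WT replicate 3 highest. That library was also the highest for 7 of the 10 mural genes, and Tet2 KO replicate 3 was the lowest for 6; the part of endothelial or other vessel material in this was not tested. Of the 12 endothelial markers none was at 0 over all libraries, and 1 was called lower, beside 10.1% of all tested genes. It was Tek (-2.59 ± 0.21, edgeR adjusted p = 0.0001).

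**Figure D4:**
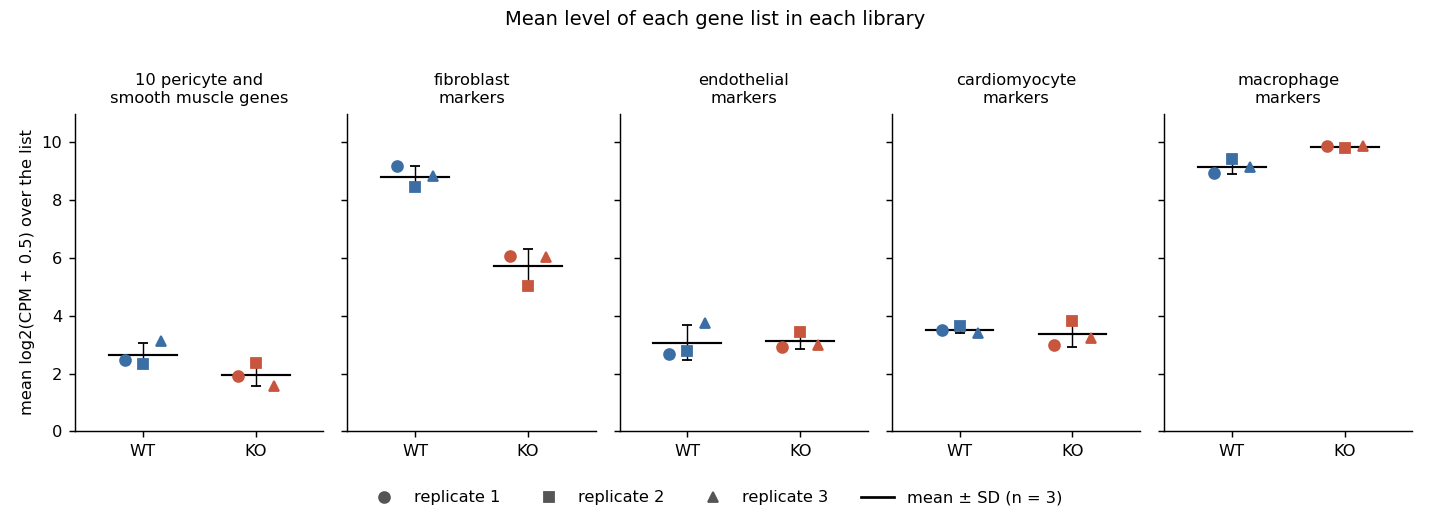
Mean log2(CPM + 0.5) over the 10 pericyte and smooth muscle genes and over 4 marker lists (vertical axis, shared) in each library, by genotype; symbols mark the replicate, bars the mean ± SD. The mural genes lie at 1.58 to 3.12 and overlap between genotypes, while the fibroblast markers fall from 8.45 or more to 6.08 or less.

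Compared per length, the mural genes came in the same order in both genotypes apart from Abcc9 and Mcam. In Tet2 WT, Acta2 was highest at 15.05 ± 4.75 TPM (SD, n = 3) and Tagln followed at 11.8 ± 3.01 TPM. Rgs5 stood at 6.10 ± 3.12, Des at 4.04 ± 0.775, Kcnj8 at 3.04 ± 1.15, Abcc9 at 2.74 ± 0.464 and Mcam at 1.91 ± 1.253 TPM. Myh11, Notch3 and Cspg4 were under 1 TPM on average, at 0.741 ± 0.682, 0.666 ± 0.348 and 0.279 ± 0.206. The range of each gene overlapped with that of the next in this order. The genes were measured in the same libraries, so overlapping ranges do not show that neighbours were level. Within each Tet2 WT library, Acta2 was above Tagln, Tagln above Rgs5, Mcam above Myh11 and Notch3 above Cspg4. The other neighbours changed order between Tet2 WT libraries. No test was made of these differences. In Tet2 KO, Acta2 was at 7.76 ± 5.24, Tagln at 7.38 ± 2.63, Rgs5 at 5.64 ± 1.46 and Des at 2.87 ± 0.503 TPM. Of neighbours in the Tet2 KO order, only Rgs5 and Des had ranges without overlap. Within each Tet2 KO library, Rgs5 was above Des, Des above Kcnj8, Mcam above Abcc9 and Notch3 above Cspg4. The other neighbours changed order between Tet2 KO libraries. Abcc9, at 0.493 ± 0.245 TPM, came after Mcam in Tet2 KO and before it in Tet2 WT. Tagln-202, an entry of 369 bases with 13.0 to 31.8 estimated counts, held 27.3 to 53.2% of the TPM of Tagln in a library. The place of Tagln in both orders rests in part on these few counts.

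Of 19 further contractile genes tested, 6 were lower in Tet2 KO, 0 higher and 13 neither, beside 10.1% lower and 6.11% higher among all tested genes. The median log2 fold change was -0.89; at an unadjusted p under 0.05, 9 were lower and 0 higher, and DESeq2 called 9 lower and 0 higher. Caldesmon (Cald1), which holds actin and myosin apart at rest, averaged 89.8 ± 23.0 CPM in Tet2 WT and 15.97 ± 1.65 CPM in Tet2 KO (SD, n = 3) and fell by 2.49 ± 0.20 on the log2 scale (edgeR adjusted p = 9.5e-05). Synpo2, Ppp1r14a, an inhibitor of myosin phosphatase, and smoothelin (Smtn) fell, with log2 fold changes of -2.47 ± 0.33, -2.46 ± 0.35 and -1.74 ± 0.25. The other two were the tropomyosins Tpm1 (-0.70 ± 0.12) and Tpm2 (-1.27 ± 0.32), named after their values were seen. Calponin 1 (Cnn1), also named after its values were seen, had 49, 30 and 0 estimated counts in Tet2 KO and 22, 11 and 4 in Tet2 WT. It was the gene of this list with the highest fold change and did not pass the test. The fibroblast markers fell in the same libraries (12 of 12, median -3.01). Their part in these falls, and the difference between this list and the 10 genes, was not tested.

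Of 19 further pericyte genes tested, 7 fell, 0 rose and 12 did neither, beside 10.1% lower and 6.11% higher among all tested genes. The median was -0.98 on the log2 scale; 10 were lower and 1 higher at an unadjusted p under 0.05, and DESeq2 called 8 lower and 0 higher. Pdgfrb, the receptor through which endothelial cells recruit pericytes and which fibroblasts also carry, fell from 99.7 ± 26.0 to 13.2 ± 5.41 CPM (-2.92 ± 0.31, edgeR adjusted p = 0.000399). Steap4 fell from 48.9 ± 7.03 to 8.47 ± 2.60 CPM (-2.53 ± 0.24), and the transcription factor Tbx18 from 9.35 ± 3.26 to 0.798 ± 0.504 CPM (-3.53 ± 0.48). Heyl, a target of Notch signalling, fell from 106.9 ± 32.4 to 19.1 ± 4.63 CPM (-2.49 ± 0.26, edgeR adjusted p = 0.000347). The fibroblast markers fell in the same libraries, and their part in these falls was not tested.

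In the Notch pathway, 2 of 19 genes tested fell and 0 rose, a share near the 10.1% lower among all tested genes, with a median of -0.14; at an unadjusted p under 0.05, 2 were lower and 1 higher, and DESeq2 and limma voom called 2 lower and 0 higher. They were the target genes Heyl and Hes1, the latter from 33.0 ± 2.33 to 16.9 ± 4.26 CPM (-0.96 ± 0.19, edgeR adjusted p = 0.00815). The receptor Notch4 had -0.98 ± 0.45 and the ligand Jag2 1.252 ± 0.52 (edgeR adjusted p = 0.186 and 0.143). Among transcription factors of the smooth muscle programme, 2 of 7 tested fell and 0 rose, beside 10.1% lower among all tested genes. At an unadjusted p under 0.05, and in DESeq2, 2 were lower and 1 higher. Those that fell were Tead1 (-3.24 ± 0.37) and Gata6 (-3.03 ± 0.41, edgeR adjusted p = 0.000397 and 0.00103), in the libraries in which the fibroblast markers fell by a median of 3.01; the part of fibroblasts was not tested. Srf, the factor that drives Acta2 and Tagln, had 0.30 ± 0.18 and Mef2c 0.39 ± 0.14 (edgeR adjusted p = 0.305 and 0.0819). Its partner myocardin (Myocd) had 2 to 22 estimated counts in a library and was not tested.

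**Figure D5:**
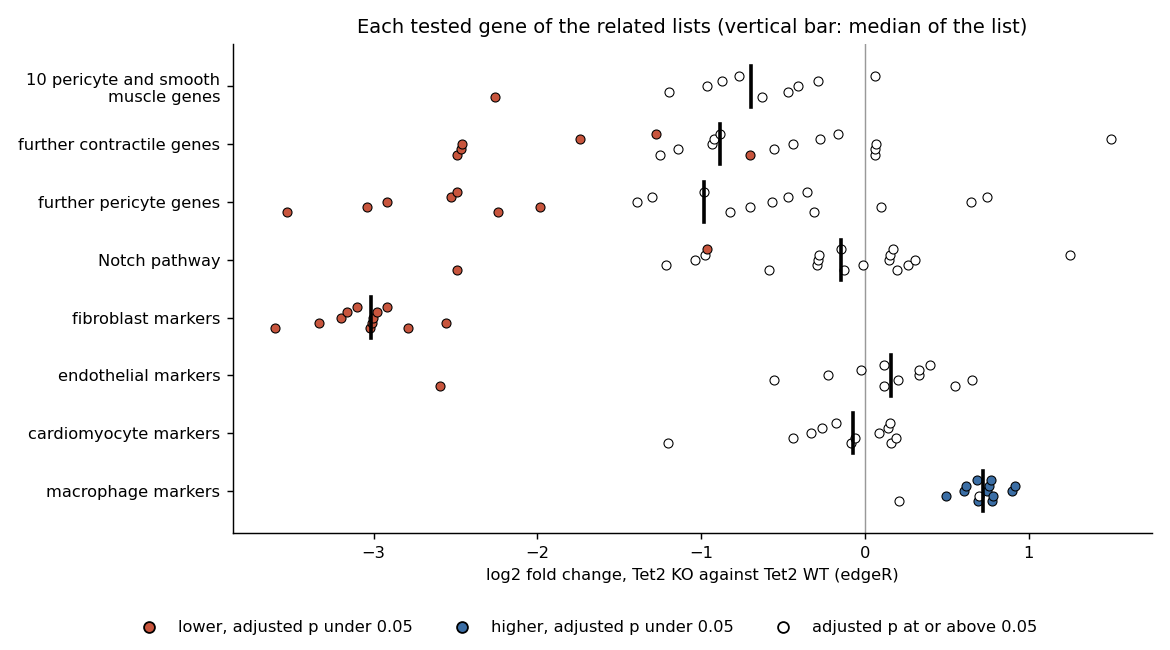
Log2 fold change, Tet2 KO against Tet2 WT (horizontal axis), of each tested gene in the related lists and marker lists; filled points passed the edgeR test and vertical bars give the list medians. The median is -0.70 for the 10 pericyte and smooth muscle genes, -0.89 for further contractile genes, -0.98 for further pericyte genes and -3.01 for fibroblast markers.

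No tested marker of cardiomyocytes or mesothelial cells passed the test, and 1 marker of Schwann cells did. Of 12 cardiomyocyte markers, 0 passed in either direction in edgeR, beside 16.2% of all tested genes. At an unadjusted p under 0.05 the count was also 0, and DESeq2 and limma voom called 0. The median log2 fold change was -0.07, and Pln and Nppa had -0.44 ± 0.24 and -1.20 ± 0.72. With libraries scaled to the macrophage markers, 4 of the 12 were called lower, beside 43.4% of all genes. Of 8 Schwann cell markers, 4 were tested. Of these, 1 was called higher and 0 lower, beside 6.11% higher and 10.1% lower among all tested genes. Cnp was the marker that rose, by 0.51 ± 0.12 (edgeR adjusted p = 0.019), but it had -0.21, not called, with libraries scaled to the macrophage markers. Egfl8 and Mbp did not pass. The 7 mesothelial markers summed to at most 2.20 CPM in a library, and the 2 tested, Wt1 and Msln, had 0.27 ± 0.84 and 0.14 ± 0.49.

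The genes whose levels followed the mean of the 10 most closely over the 6 libraries were Atp11a (Pearson r = 0.99), Myo10 (0.99), Rusc2 (0.98), Borcs8 (0.97) and Eif5a2 (0.97). These values describe 6 points that share their libraries and depth and are given without a test. Atp11a, for example, stood at 31.6, 34.5 and 25.6 CPM in Tet2 KO and 40.05, 35.1 and 51.8 CPM in Tet2 WT. Tet2 KO replicate 3 was lowest and Tet2 WT replicate 3 highest, as for Acta2, Tagln, Myh11 and Cspg4. None of the 5 genes passed the test, with log2 fold changes from -0.57 to -0.17.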

How the data were processed

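Trim Galore 0.6.4, kallisto 0.44.0 and the build GRCm38 are named in the submitters' processing notes; the annotation release and strand setting were not given in the sources used here. The authors deposited, per transcript and library, an estimated count (not normalized) and a TPM value scaled within the library. Of 118783 transcripts, 116622 (98.2%) matched GENCODE M21 by identifier, 99.8% of them with the same length; the 2161 others held at most 0.671% of a library's counts and were left out.

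Counts were summed per gene, rounded, filtered with filterByExpr, TMM-scaled and tested with edgeR 4.0.16 (quasi-likelihood, robust) under R 4.3.3. The model held genotype alone, and p-values of all 16386 tested genes were adjusted together (Benjamini-Hochberg). The script was tested on simulated data. Alternatives were RLE, upper-quartile and macrophage-marker scaling, filters, libraries left out, a replicate block, DESeq2 1.42.0, limma 3.58.1 (voom; log2 of TPM + 1 and + 0.1) and length-scaled TPM counts. No pair of libraries of a genotype agreed within sampling noise (chi-square per gene at least 63.9).

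The 10 genes and all lists were chosen with earlier results of these data known. Named are the 10 genes and, by rule, up to 4 genes of each other list by smallest p, the lists of channel paralogs, actins and myosins in full and the 5 genes of highest correlation with mean log2 CPM of at least 2; Cnn1, Tpm1 and Tpm2 were added after their values were seen, as was the Abcc9 to Kcnj8 ratio. Transcripts holding at least 5% of their gene's TPM in a library could be named. A gene of the marker lists is not reported here.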

Additional observations from a re-analysis of the deposited data

How the results depend on the processing

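Abcc9 was called lower in all 18 other fits (log2 fold change -2.96 to -1.33, adjusted p 1.87e-08 to 0.0227). The count of mural genes called lower was 1 except with libraries scaled to the macrophage markers (6) and with libraries left out singly (1 to 3, 3 without Tet2 KO replicate 2). That scaling, which shifts the median log2 fold change by -0.71, called 7105 genes (43.4%) lower and 19 higher, against 1652 and 1001; its mural calls, Abcc9, Kcnj8, Acta2, Des, Notch3 and Tagln, stand beside that background. It also called 14 contractile, 11 pericyte and 8 Notch pathway genes lower. Without replicate 1 of both genotypes, 1011 genes were lower and 177 higher, with 1 Notch pathway gene lower. Single libraries left out gave 1032 to 1739 lower and 350 to 1402 higher genes; 384 were higher (1930 lower) by limma on log2(TPM + 1) and 400 (1922 lower) on log2(TPM + 0.1). The causes of these differences between fits were not tested.

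Of 180 log2 fold changes of mural genes in other fits, 163 kept direction and call, 7 became calls and 10 changed sign. Rgs5 became -0.62 (macrophage scaling), -0.11 (without Tet2 KO replicate 2), -0.23 (without Tet2 WT replicate 1), -0.31 (without replicate 1 of both), -0.025 (log2(TPM + 1)) and -0.015 (log2(TPM + 0.1)). With single libraries left out, Rgs5 ranged from -0.23 to 0.48, Cspg4 from -1.06 to 0.25 (0.02 without Tet2 KO replicate 3, 0.25 without Tet2 WT replicate 3) and Mcam from -1.02 to 0.44 (0.06 leaving out Tet2 KO replicate 1, 0.44 leaving out Tet2 WT replicate 3).

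With the replicate block, 1 mural gene, 1558 genes in all lower and 789 higher were called. Deviations of same-numbered libraries correlated at 0.08, 0.17 and 0.06, and those of differently numbered libraries at -0.13 to 0.07. Tet2 KO replicates 1 and 2 followed their own numbers most closely. Tet2 KO replicate 3 followed Tet2 WT replicate 1 (0.07) slightly more closely than its own number. The labels state no pairing, and the numbers were not taken as one. Whether same-numbered libraries shared a batch was not tested. A 2-fold fall lay within the intervals of Cspg4, Myh11 and Mcam (11 to 349 estimated counts per library) and also of Acta2, Tagln, Notch3 and Kcnj8. Such a fall was therefore not excluded for these genes, nor for Des with libraries scaled to the macrophage markers (-1.14). Counting noise and spread among libraries were not separated.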
